A study of Mus musculus with 16 samples.

Results

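Interleukins are secreted proteins through which cells of the immune system and of the tissue around them act on one another, and each acts through receptor chains on the receiving cell. The genes described here are the protein-coding genes whose symbol is Il followed by a digit, apart from Il2ra, Il7r and Il21, which the name rule left out. Of 53465 genes in the count table, 81 entries met the rule. They carry 79 symbols, since Il11ra2 stands in the table as 3 entries. In role, 36 entries are ligands, 38 are receptor chains, 6 are antagonists, decoy receptors or binding proteins, and 1, Il4i1, is an enzyme.

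The counts came from bulk RNA-seq of 16 tumors of MC38, a mouse colon carcinoma line, grown from 1 injection under the skin of each female C57BL/6 mouse (6 to 8 weeks old). Dosing with 200 micrograms of control IgG or of an antibody against the checkpoint receptor PD-1 (aPD-1) fell on days 16 and 20, and all tumors were harvested on day 21. The groups were IgG control (replicates 1 to 8), aPD-1 non-responder (9 to 14) and aPD-1 responder (15 and 16). The study split the treated tumors by their staining for CD8 T cells, so genes of T cells are tied to how the responder group was formed, and that group holds only 2 tumors of 1 cell line.

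Receptors of this group are built from shared parts. The common gamma chain Il2rg pairs with private chains for IL-2, IL-4, IL-7, IL-9, IL-15 and IL-21. The chain Il6st (gp130) serves IL-6, IL-11 and IL-27, and Il12rb1 serves both IL-12 and IL-23. Most of these chains signal through JAK kinases and STAT factors. The receptors of IL-1, IL-18, IL-33 and IL-36 signal instead through MYD88 and IRAK proteins, and IL-17 receptors through TRAF3IP2. In tumors, IL-2, IL-12, IL-15, IL-18 and IL-21 are known for driving T and NK cells, and IL-10 and IL-34 for acting on or through myeloid cells.

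Total counts per tumor ran from 26603449 to 39948866, and 52 of the 81 entries had enough counts to be tested. The share of mitochondrial mRNA was 7.32% (IgG control 1), 5.80% (non-responder 9) and 5.54% (non-responder 14), against at most 3.15% in the other tumors, and ribosomal RNA took 21.8% in IgG control 3. Markers of other cells moved with the responder group. Read counts scaled to CPM (counts divided by the TMM-effective library size, in units of 1e6 counts), summed over 8 T cell markers, were 253 in responder 15 and 233 in responder 16, against 8.27 to 35.9 in the 14 other tumors, and the 8 markers were all called higher. The 7 B cell markers summed to 1105 and 285 CPM against 1.63 to 7.14, and 5 markers of lymph node stroma or high endothelial venules to 376 and 116 CPM against at most 4.05, with Chst4 at 0 in 12 of those 14 tumors. Fat cell markers summed to 1180 and 213 CPM against at most 79.6. The sum of the 8 macrophage and monocyte markers overlapped between responders and non-responders. It was 1468 and 1392 CPM in responders, 965 to 1438 in non-responders and 850 to 1240 in IgG controls. Taken singly, 2 of the 8 were called higher over non-responders (12.5% of all genes), and log2 fold changes were above 0 for 6 and below for 2. Mrc1 was at 206 and 126 CPM against at most 94.5 CPM in other tumors, and Ly6c2 at 32.3 and 66.6 CPM against at most 13.6 CPM. In a bulk sample, more cells of a type and more RNA per cell cannot be told apart. The part of these cell types in the results was not tested. The 8 colon epithelium markers summed to 87.4 and 38.9 CPM in responders, against at most 11.6 CPM in the other tumors. Krt8 and Krt18 were among those higher in both responders, while Cdx2 was at 0 in 15 of 16 tumors.

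Per length of exon sequence, the most abundant interleukin gene was Il1rl1, the receptor of IL-33, at a mean level of 50.9 CPM per kb over the 16 tumors. Il2rg followed at 28.1, Il34, a ligand of the macrophage receptor CSF1R, at 21.4, Il6st at 21.2 and Il10ra, the ligand-binding chain of the IL-10 receptor, at 12.6 CPM per kb. The order differed by group. Il1rl1 led in IgG controls (50.9 ± 12.4 CPM per kb, SD, n = 8) and in non-responders (53.4 ± 15.5, SD, n = 6). In responders Il2rg led with 62.1 and 55.6 CPM per kb, and Il1rl1 was second with 29.8 and 56.8, so the first 2 places overlapped in their spread there. Il34, Il6st and Il2rg also overlapped in IgG controls, where their ranges were 18.9 to 33.0, 11.4 to 26.8 and 18.6 to 30.7 CPM per kb.

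**Figure D1:**
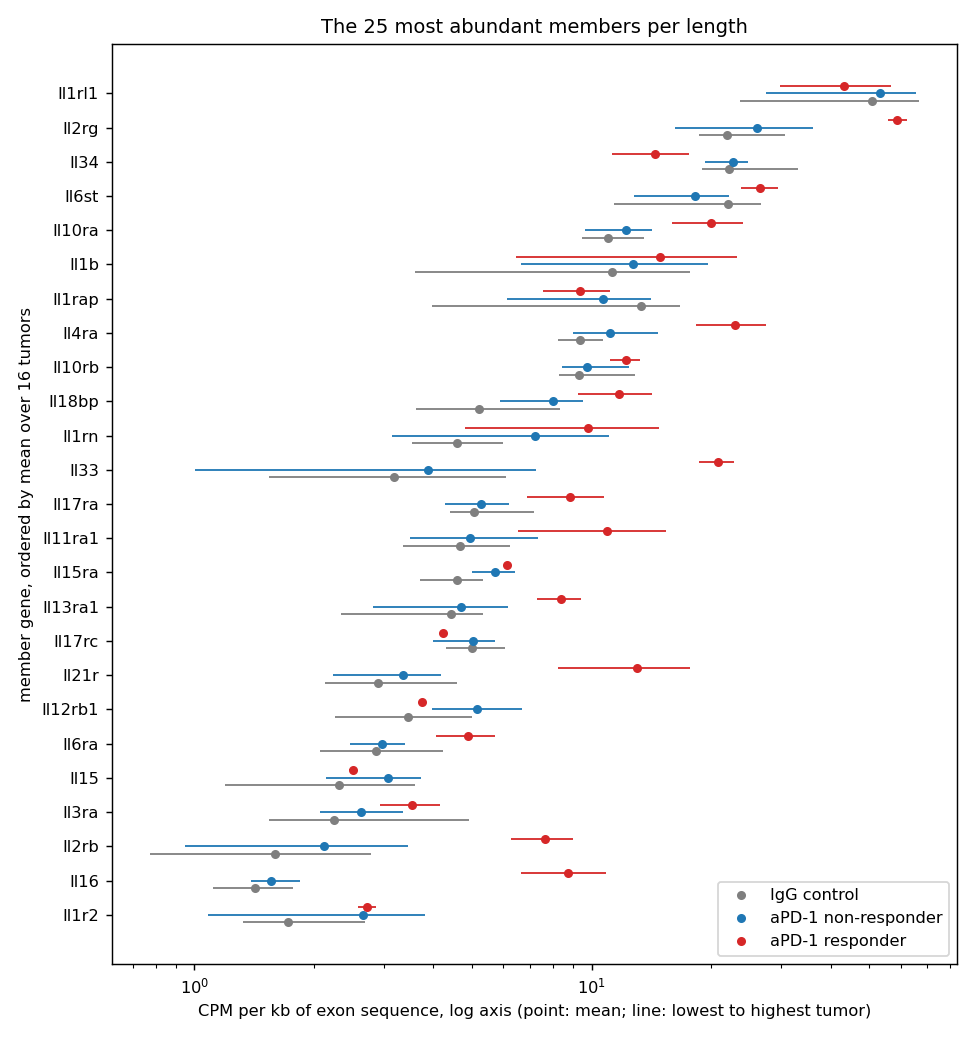
Level of the 25 most abundant members in CPM per kb of exon sequence on a log axis, as the mean (point) and the lowest to highest tumor (line) of the groups IgG control (8 tumors), non-responder (6) and responder (2). Il1rl1 and Il1rap overlap across the 3 groups, while Il2rg, Il4ra, Il33, Il21r, Il2rb and Il16 lie above the others in both responders.

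Summed over all members, interleukin genes made up 1280 ± 155 CPM in IgG controls (SD, n = 8) and 1315 ± 245 CPM in non-responders (SD, n = 6). The 2 responders held 1979 and 1879 CPM, above the highest other tumor at 1566 CPM. Il1rl1, Il6st and Il1rap, an accessory chain of IL-1 family receptors, together took 31.3% to 63.2% of this sum.

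Which interleukin genes separated responders from non-responders was asked first. Calls required edgeR's quasi-likelihood test to give an adjusted p under 0.05, together with a log2 fold change beyond 1 in either direction. Of the 52 tested members, 20 were called higher in responders and 0 lower, where 12.5% of all genes tested were called higher and 0.663% lower. Counted by role, 6 of 17 ligands, 12 of 29 receptor chains, 1 of 5 antagonists and binding proteins and the enzyme Il4i1 were called. A further 5 members (Il18, Il18rap, Il10ra, Il17ra and Il6ra) passed the adjusted p on the higher side without reaching the fold limit, and 1 member, Il34, passed it on the lower side. By the adjusted p alone that made 25 higher and 1 lower, against 15.4% and 4.34% of all genes. At an unadjusted p below 0.05 there were 31 members (31.2% of all genes), of which Il34 was the only lower one. DESeq2 called 20 higher and 0 lower. The median log2 fold change was 0.84 over the members and 0.019 over all genes. Both responders lay above every non-responder for 27 members (21.5% of all genes) and below for 2 (13.2%). The filter on low counts was passed by 5 members through the responders alone (Il22ra2, Il12a, Il23r, Il17re and Il5ra), so their higher level there was a condition of being tested, and their p-values are not given. Of these 5 all but Il23r were called. The counts by role above include them: the ligand Il12a, the receptor chains Il5ra and Il17re, and Il22ra2, the 1 called member among antagonists and binding proteins. Among the 47 other members, 16 were called higher and 0 lower, and the median log2 fold change was 0.71. The counts by p-value and by non-overlap above were taken over all 52. Both responders lay above every non-responder for each of the 5, which enter those counts as a description. Without responder 15 the count of members called higher was 12, and without responder 16 it was 17, with Il34 then called lower. Without the 3 tumors above 5% mitochondrial mRNA it was 16, since the log2 fold changes of Il11ra1, Il2rg, Il4ra and Il7 were then 0.94, 0.87, 0.86 and 0.96, under the fold limit, with adjusted p of 0.042, 0.0029, 0.0013 and 0.015.

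**Figure D2:**
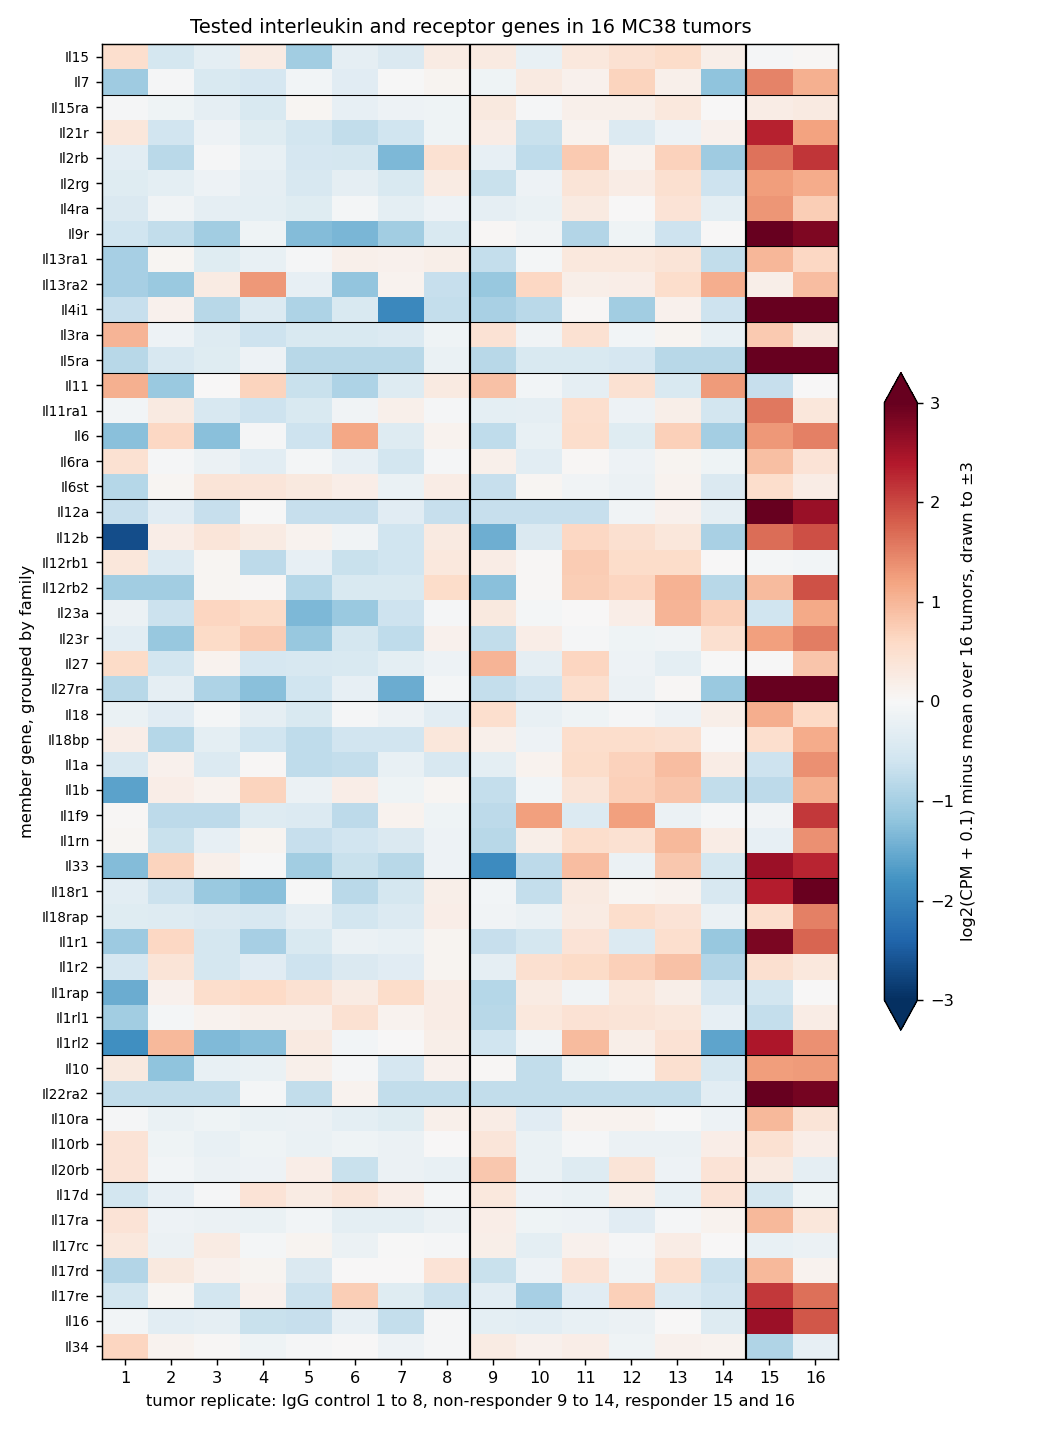
Heat map of the 52 tested members (rows, grouped by family) in the 16 tumors (columns), as log2(CPM + 0.1) minus the mean over tumors, with colors drawn to 3 on either side. The 20 called members are red in columns 15 and 16, among them Il4i1, Il5ra, Il9r, Il27ra, Il22ra2 and Il12a, while Il1rl1, Il1rap, Il17rc and Il12rb1 show no such block.

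**Figure D3:**
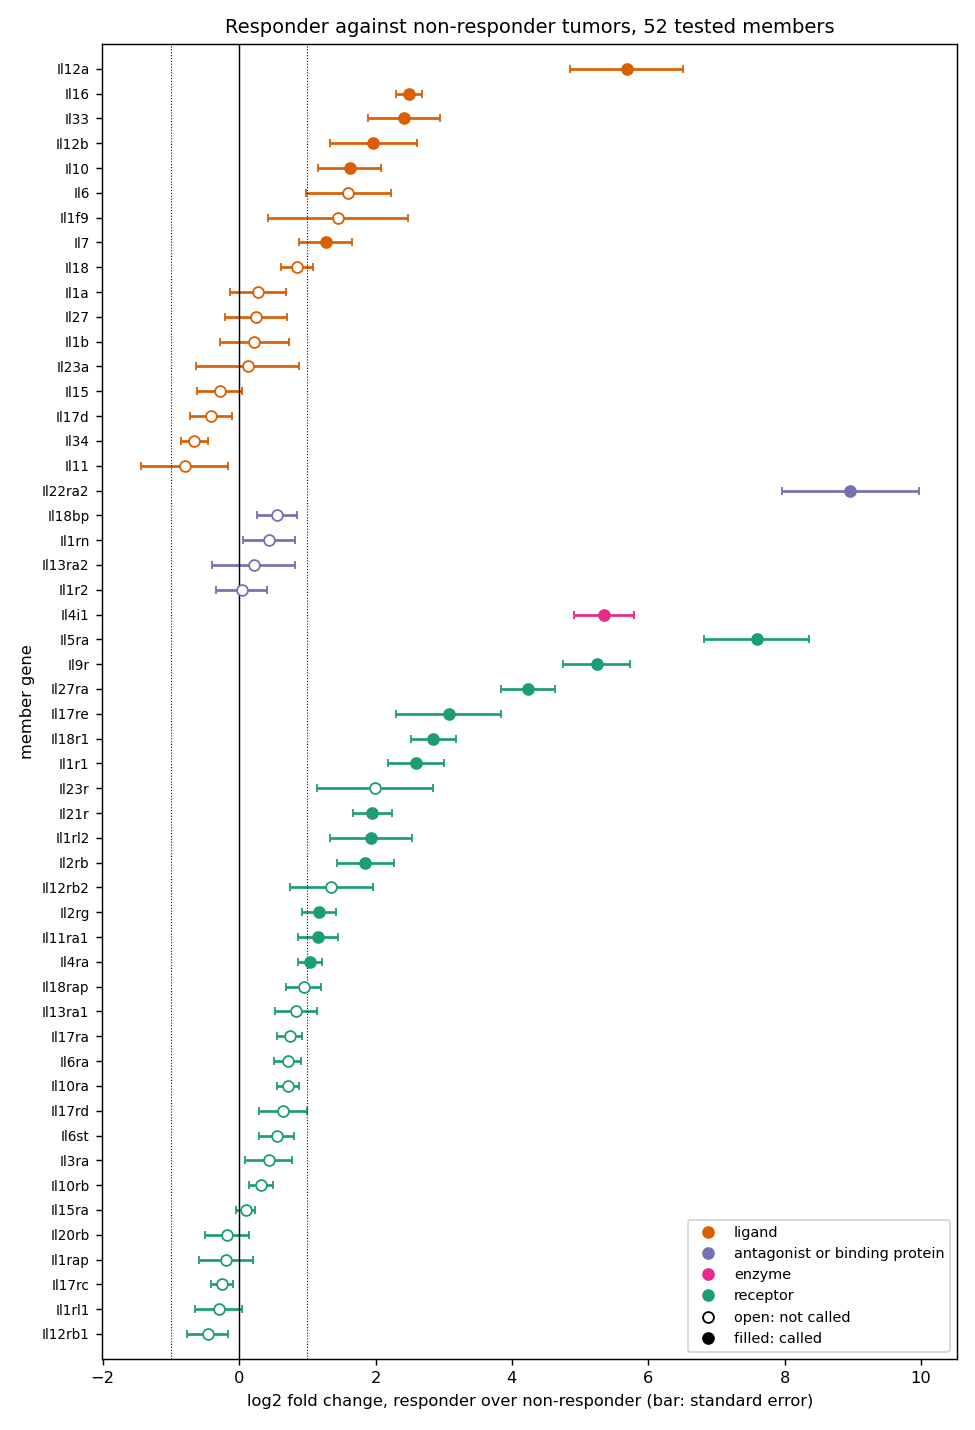
Log2 fold change of responder over non-responder tumors with its standard error for the 52 tested members, colored by role and filled where called. Filled points reach from Il4ra at 1.04 upward, and the 9 members below 0 include Il34, Il12rb1 and Il1rl1. The fitted values of Il22ra2 and Il5ra rest on 1 and 3 counts in all non-responders.

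Sequence upstream of the called members was looked at because STAT factors and NF-kB act on gene starts. RefSeq windows of GRCm38.p6 (250 bases before to 50 bases after a start site) matched 15 of the 20 called members. Searches for 3 motifs made on both strands: the STAT-binding GAS motif TTCNNNGAA, the interferon response motif ISRE (2 copies of GAAA with NN between them), and the NF-kB consensus. A GAS match stood in 1 of the 15 members (6.67%) against 9.55% of 27025 genes, and an ISRE match in 0 (3.99% of all genes). An NF-kB match stood in 3 (20%, against 9.55%). Genes can have several windows: per window the NF-kB share was 3 of 23 (13%) against 8.46% of 32851. Among the 39 tested members matched, called or not, 5 (12.8%) held an NF-kB match. The 4 windows below are all those of called members that held a match, with the matched bases in capitals. A match is a string of letters and no measured site.
Il18r1, chr1:40465756-40466055, plus strand, 2 GAS matches that start 219 and 152 bases before the start site: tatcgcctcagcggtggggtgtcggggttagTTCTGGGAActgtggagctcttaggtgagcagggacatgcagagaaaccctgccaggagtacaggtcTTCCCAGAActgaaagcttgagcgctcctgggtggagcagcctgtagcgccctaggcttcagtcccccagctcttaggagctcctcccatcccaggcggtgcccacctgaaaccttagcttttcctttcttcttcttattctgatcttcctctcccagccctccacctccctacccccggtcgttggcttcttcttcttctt
Il16, chr7:83655446-83655745, minus strand, 2 overlapping NF-kB matches that start 49 and 48 bases before the start site: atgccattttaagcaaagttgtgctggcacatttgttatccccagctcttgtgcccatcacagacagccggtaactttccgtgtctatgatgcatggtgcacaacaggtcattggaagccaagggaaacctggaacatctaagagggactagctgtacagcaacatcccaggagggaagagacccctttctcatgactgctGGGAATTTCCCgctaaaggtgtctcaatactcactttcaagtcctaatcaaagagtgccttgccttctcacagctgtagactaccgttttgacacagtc
Il1r1, chr1:40266336-40266635, plus strand, 1 NF-kB match that starts 232 bases before the start site: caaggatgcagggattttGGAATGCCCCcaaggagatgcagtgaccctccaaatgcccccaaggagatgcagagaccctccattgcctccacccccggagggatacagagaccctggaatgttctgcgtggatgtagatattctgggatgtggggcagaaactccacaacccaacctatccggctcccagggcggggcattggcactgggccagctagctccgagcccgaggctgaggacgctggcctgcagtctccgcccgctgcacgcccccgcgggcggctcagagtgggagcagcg
Il4ra, chr7:125552021-125552320, plus strand, 1 NF-kB match that starts 21 bases after the start site: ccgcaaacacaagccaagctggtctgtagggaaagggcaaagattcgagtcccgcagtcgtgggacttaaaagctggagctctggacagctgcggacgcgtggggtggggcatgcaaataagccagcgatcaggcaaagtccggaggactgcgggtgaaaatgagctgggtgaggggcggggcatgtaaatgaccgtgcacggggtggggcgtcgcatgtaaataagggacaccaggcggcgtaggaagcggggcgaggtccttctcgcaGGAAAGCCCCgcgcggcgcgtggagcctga

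Of the 6 receptor chains of the common gamma family, 5 were called higher in responders, all but Il15ra, where 12.5% of all genes were. Il9r, the private chain of the IL-9 receptor, stood at 30.6 CPM in responder 15 and 4.53 CPM in responder 16, against 0.259, 0.511 and 0.580 CPM (lowest, median, highest) in non-responders and 0.156, 0.263 and 0.510 CPM in IgG controls. Both responders were far above all other tumors, and they differed from each other by 6.76 times. Over non-responders the log2 fold change was 5.24 ± 0.49 (SE, adjusted p = 9.8e-07, edgeR's quasi-likelihood test), and 3.21 without responder 15. Il9 itself, the ligand, had 0 counts in all 16 tumors.

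Il21r, the private chain for IL-21, which B and T cells carry, was at 59.0 and 27.4 CPM in responders, against 7.44 to 13.9 CPM in non-responders (median 11.8) and 7.08 to 15.2 CPM in IgG controls (median 8.66). The responders did not overlap the other groups, and the log2 fold change was 1.95 ± 0.28 (SE, adjusted p = 9.1e-05). Il2rb, the signaling chain shared by IL-2 and IL-15, was at 26.9 and 38.5 CPM, against 4.06, 8.27 and 14.8 CPM (lowest, median, highest) in non-responders and 3.32, 6.50 and 11.9 CPM in IgG controls. Its log2 fold change was 1.85 ± 0.42 (SE, adjusted p = 0.0044), and without responder 16 its adjusted p was 0.067. Il2rg, the common chain, was at 148 and 133 CPM in responders, against 38.7, 64.0 and 86.3 CPM in non-responders and 44.4, 50.8 and 73.3 CPM in IgG controls. Neither Il2rb nor Il2rg overlapped between responders and the other tumors. The log2 fold change of Il2rg was 1.17 ± 0.25 (SE, adjusted p = 0.0029), and without responder 15 its adjusted p was 0.091. Without the tumors above 5% mitochondrial mRNA its log2 fold change of 0.87 missed the fold limit.

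Il4ra, a receptor chain shared by IL-4 and IL-13, was at 165 and 110.1 CPM in responders. It was at 53.9, 62.4 and 88.0 CPM (lowest, median, highest) in non-responders and 49.4, 54.5 and 64.0 CPM in IgG controls. The responders did not overlap the other groups. At 1.04 ± 0.18 (SE, adjusted p = 0.00044) the log2 fold change lay just above the fold limit, and the call was lost without any 1 of IgG control 1, non-responders 9, 10 and 14 or responder 15, with a log2 fold change of 0.65 and an adjusted p of 0.098 in the last case. Il4ra and Il21r are neighbors on chromosome 7 (GRCm38), 23954 bases apart on the same strand. Il15ra, which presents IL-15, was at 26.8 and 27.6 CPM in responders and at 22.2 to 28.5 CPM in non-responders, within the same range (log2 fold change 0.09 ± 0.13, SE, adjusted p = 0.70).

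Of the ligands of these chains, Il7, a survival factor for lymphocytes made by stroma, was called. It was at 3.19 and 2.33 CPM in responders, against 0.406, 1.19 and 1.77 CPM (lowest, median, highest) in non-responders and 0.456, 0.917 and 1.14 CPM in IgG controls. The log2 fold change was 1.27 ± 0.39 (SE, adjusted p = 0.029), and the adjusted p was 0.41 without responder 15 and 0.064 without responder 16. Il15, a growth factor of CD8 T and NK cells, was at 5.56 and 5.82 CPM in responders, inside the range of non-responders at 4.86 to 8.40 CPM (log2 fold change -0.29 ± 0.32, SE, adjusted p = 0.62). Il2, Il4 and Il9 had too few counts to be tested. Il2, the T cell growth factor, had 1 and 5 counts in responders and 0 to 3 in every other tumor, and Il4 had 5 and 4 counts against 0 to 3. Receptor chains of this family were therefore measured in every tumor, and the ligands Il2, Il4 and Il9 at or near 0 counts.

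Il4i1, an enzyme that breaks down aromatic amino acids and is named for its induction by IL-4, was called higher in responders. It stood at 58.2 and 19.6 CPM in responders, against 0.608, 0.788 and 1.49 CPM (lowest, median, highest) in non-responders and 0.281, 0.787 and 1.48 CPM in IgG controls. The medians of non-responders and IgG controls were nearly equal, and both responders were above all 14 of those tumors. The log2 fold change was 5.35 ± 0.44 (SE, adjusted p = 2.7e-07). Its gene overlaps that of Nup62 on the same strand, and reads of shared exons may be split between them by the counting. Of the IL-13 receptors, Il13ra1 was at 35.0 and 27.1 CPM in responders against 10.4 to 22.9 CPM in non-responders, which missed the threshold (log2 fold change 0.83 ± 0.31, SE, adjusted p = 0.068), and the decoy Il13ra2 was at 2.93 and 4.98 CPM against 1.13 to 5.59 CPM. Il13 had 0 and 11 counts in responders and 0 to 2 in every other tumor.

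**Figure D4:**
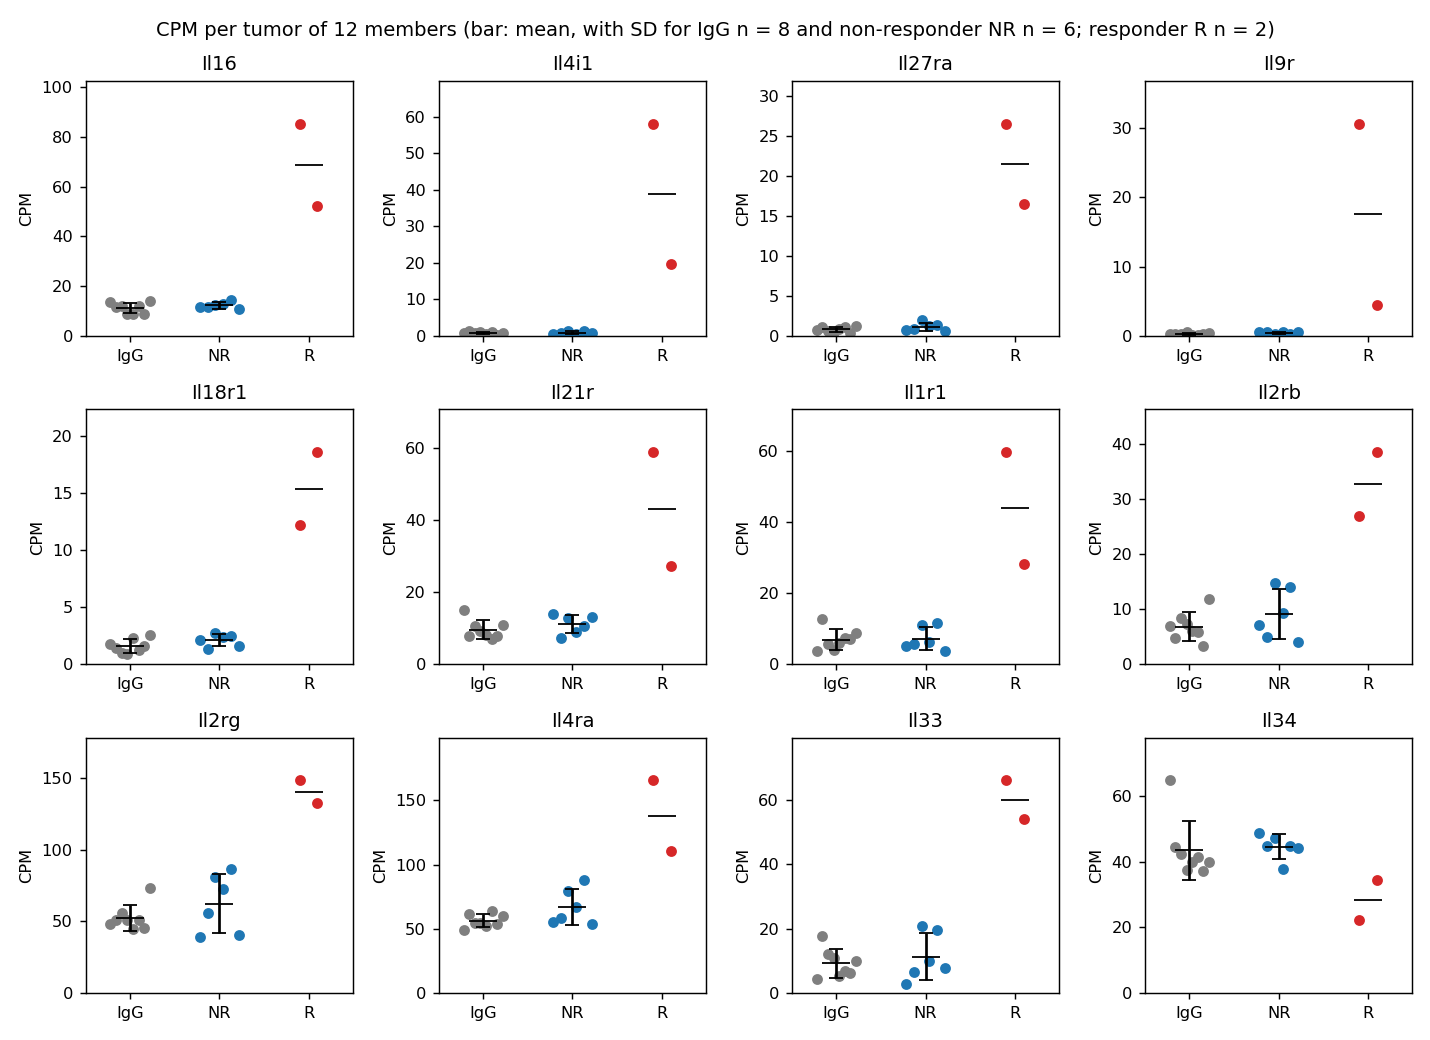
CPM of 12 members in each tumor: 8 IgG controls, 6 non-responders (NR) and 2 responders (R), on linear axes from 0, with the group mean and, for the first 2 groups, the SD. For 11 of the panels both red points lie above all others, and for Il34 both lie below; the 2 red points stand far apart for Il9r and Il4i1 and close together for Il2rg.

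In the IL-12 family, whose members are dimers that steer T cells, 3 of 8 were called higher in responders, against 12.5% of all genes. These were Il12b, Il27ra and Il12a, the last of which could be tested only through its counts in responders. Il27ra was at 26.5 and 16.5 CPM in responders, against 0.576, 1.04 and 1.99 CPM (lowest, median, highest) in non-responders and 0.422, 0.791 and 1.3 CPM in IgG controls. No other tumor came near the responders, and the log2 fold change was 4.23 ± 0.39 (SE, adjusted p = 9.3e-07). The other parts of the IL-27 system overlapped or differed less. Il27, one subunit of the ligand, was at 0.680 and 1.29 CPM in responders and at 0.540 to 1.5 CPM in non-responders (log2 fold change 0.25 ± 0.45, SE, adjusted p = 0.77), and -0.34 without responder 16. The other subunit, Ebi3, had a log2 fold change of 0.62 ± 0.27 (SE, adjusted p = 0.13), and the second receptor chain, Il6st, of 0.55 ± 0.25 (SE, adjusted p = 0.15).

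Il12a, the p35 subunit of IL-12, had 81 and 31 counts in responders, 6 counts over all non-responders and 4 over all IgG controls. The ratio of responders to non-responders in summed counts per effective library was 56.0. It is a description, since the responder counts were a condition of testing Il12a. Il12b, the p40 subunit that IL-12 shares with IL-23, was at 2.66 and 3.21 CPM in responders, against 0.214, 0.775 and 1.24 CPM (lowest, median, highest) in non-responders and 0.0380, 0.867 and 1.01 CPM in IgG controls. Its log2 fold change was 1.97 ± 0.64 (SE, adjusted p = 0.037). The call for Il12b was lost without any 1 of non-responders 9, 10 and 14 and without either responder, with adjusted p up to 0.20. The IL-12 receptor chains did not pass: Il12rb1 was at 15.5 and 15.2 CPM in responders, below all non-responders at 16.3 to 27.4 CPM (log2 fold change -0.46 ± 0.30, SE, adjusted p = 0.33), and Il12rb2 at 1.06 and 2.17 CPM against 0.153 to 1.13 CPM (log2 fold change 1.35 ± 0.61, SE, adjusted p = 0.14). Il23a, the private subunit of IL-23, was at 0.118 and 0.619 CPM against 0.213 to 0.565 CPM. Its receptor chain Il23r was at 0.414 and 0.534 CPM against 0.0305 to 0.203 CPM.

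Of 7 tested ligands and antagonists of the IL-1 family, 1 was called over non-responders, where 12.5% of all genes were called higher. It was the alarmin Il33, which stromal cells keep in their nuclei. Il33 was at 66.0 and 53.9 CPM in responders, against 2.90, 8.74 and 20.9 CPM (lowest, median, highest) in non-responders and 4.45, 8.41 and 17.6 CPM in IgG controls. Both responders lay above every other tumor, with a log2 fold change of 2.42 ± 0.53 (SE, adjusted p = 0.0034), or 2.20 with an adjusted p of 0.074 without responder 15. Il18, which drives interferon gamma in T and NK cells, was at 3.90 and 2.78 CPM against 1.52 to 2.59 CPM in non-responders (log2 fold change 0.85 ± 0.24, SE, adjusted p = 0.017), and its adjusted p was 0.49 without responder 15. Its binding protein Il18bp was at 28.0 and 42.9 CPM against 17.8 to 28.8 CPM (log2 fold change 0.55 ± 0.29, SE, adjusted p = 0.21).

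The inflammatory ligands Il1a and Il1b and the antagonist Il1rn split the responders. Il1b was at 12.3 CPM in responder 15, under the lowest non-responder at 12.7 CPM, and at 44.3 CPM in responder 16, above the highest at 37.6 CPM. Il1a was at 1.77 and 7.31 CPM and Il1rn at 26.5 and 81.8 CPM, where non-responders ran from 2.26 to 5.35 and from 17.5 to 61.2 CPM. The adjusted p of the 3 genes was 0.83, 0.72 and 0.48 in that order, and without responder 16 their log2 fold changes were -1.03, -1.13 and -0.64. Summed neutrophil markers were 15.9 CPM in responder 15 and 36.2 CPM in responder 16 against 8.20 to 13.2 CPM in non-responders, with the defining marker Ly6g at 0 in all 16 tumors. Their part in these values was not tested.

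The receptors of the IL-1 family showed 3 called members among 7 tested, against 12.5% of all genes called higher. Il18r1, the ligand-binding chain for IL-18, was at 12.2 and 18.6 CPM in responders, against 1.37, 2.29 and 2.77 CPM (lowest, median, highest) in non-responders and 0.899, 1.5 and 2.6 CPM in IgG controls. No other tumor reached the responders, which gave a log2 fold change of 2.85 ± 0.33 (SE, adjusted p = 9.5e-06). Its signaling partner Il18rap was at 7.98 and 16.1 CPM, against 4.98 to 8.10 CPM in non-responders, so responder 15 was inside their range. The log2 fold change of Il18rap was 0.95 ± 0.26 (SE, adjusted p = 0.014), and 0.30 with an adjusted p of 0.58 without responder 16. Il1r1, the signaling receptor of IL-1, was at 59.7 and 28.2 CPM, against 3.73, 5.97 and 11.7 CPM in non-responders and 3.84, 6.50 and 12.9 CPM in IgG controls. It did not overlap between groups (log2 fold change 2.6 ± 0.41, SE, adjusted p = 0.00023).

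Il1rl2, the receptor of IL-36, was at 17.2 and 8.24 CPM in responders against 0.982, 3.24 and 6.11 CPM (lowest, median, highest) in non-responders (log2 fold change 1.93 ± 0.61, SE, adjusted p = 0.033). The call for Il1rl2 was lost without any 1 of non-responders 9, 10 and 12 and without responder 15, with an adjusted p of 0.50 in the last case. Il1rl1, the receptor of the IL-33 that rose, was at 206 and 391 CPM in responders, against 189, 420 and 451 CPM in non-responders and 163, 368 and 460 CPM in IgG controls. Its groups overlapped (log2 fold change -0.30 ± 0.35, SE, adjusted p = 0.62). The lowest Il1rl1 levels outside responders lay in IgG control 1 and non-responder 9, both above 5% mitochondrial mRNA. Without the 3 tumors above that limit the log2 fold change was -0.59 with an adjusted p of 0.030, and without responder 15 it was 0.020. The accessory chain Il1rap was at 85.8 and 127 CPM against 69.7 to 160 CPM, and the decoy Il1r2 at 5.47 and 4.92 CPM against 2.07 to 7.25 CPM.

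A cluster of 478 kb holds 6 of these receptor genes on chromosome 1, all on the plus strand, in the order Il1r2, Il1r1, Il1rl2, Il1rl1, Il18r1 and Il18rap. Called and uncalled genes lay side by side in it. Il1rl1 ends 136 bases before Il18r1 starts, and the pair had log2 fold changes of -0.30 and 2.85 (SE 0.35 and 0.33).

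**Figure D5:**
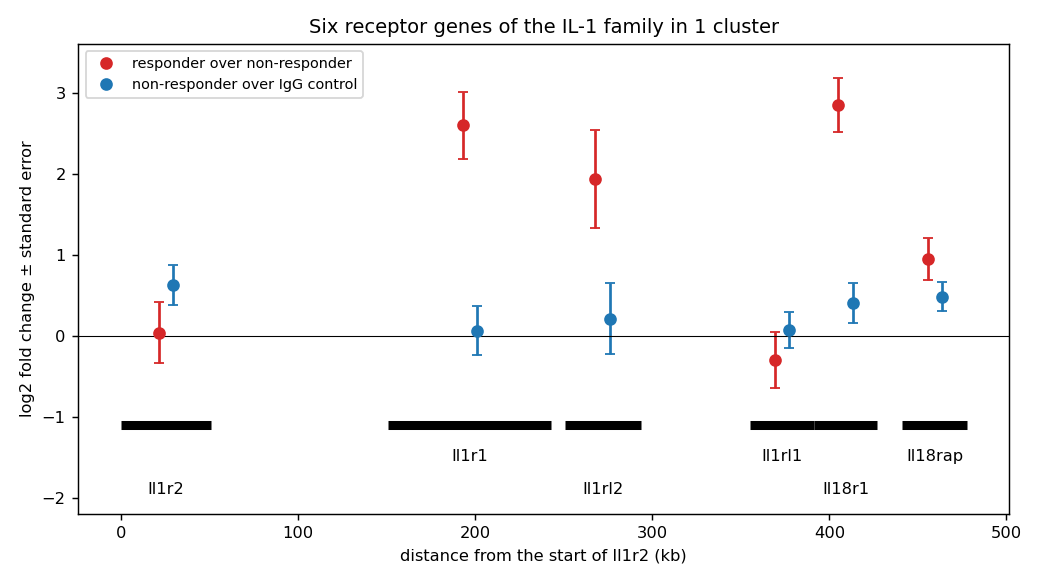
Log2 fold change with its standard error for the 6 clustered IL-1 family receptor genes, placed by distance in kb from the start of Il1r2 (black bars mark each gene), for responder over non-responder (red) and non-responder over IgG control (blue). The red points are at 2.6, 1.93 and 2.85 for Il1r1, Il1rl2 and Il18r1 and at 0.036 and -0.30 for Il1r2 and Il1rl1.

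In the IL-10 and IL-22 group, the ligand Il10, which restrains inflammation, was at 0.916 and 0.928 CPM in responders, against 0.152, 0.296 and 0.488 CPM (lowest, median, highest) in non-responders and 0.0820, 0.291 and 0.418 CPM in IgG controls. The 2 responders were nearly equal and above all others (log2 fold change 1.62 ± 0.46, SE, adjusted p = 0.019), though the adjusted p was 0.19 without responder 15 and 0.099 without responder 16. Il10ra was at 84.3 and 55.7 CPM against 33.8 to 49.7 CPM in non-responders (log2 fold change 0.71 ± 0.16, SE, adjusted p = 0.0043), with an adjusted p of 0.48 without responder 15. Il22ra2, a soluble receptor that captures IL-22, had 250 and 40 counts in responders, 1 count over all non-responders and 5 over all IgG controls. The ratio of responders to non-responders was 870, and 250 of the 290 responder counts came from responder 15. This ratio is a description too, because Il22ra2 passed the filter through the responders alone. Il22 itself had 0 counts in every tumor.

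In the IL-6 group, Il6 was at 1.60 and 1.86 CPM in responders, above non-responders at 0.237 to 1.03 CPM, without passing the test (log2 fold change 1.60 ± 0.62, SE, adjusted p = 0.085). Il6ra, its private receptor chain, was at 49.4 and 35.1 CPM against 21.3 to 29.3 CPM (log2 fold change 0.71 ± 0.20, SE, adjusted p = 0.017, and 0.55 without responder 15). Il6st, at 327 and 264 CPM against 142 to 247 CPM, did not pass. Il11, at 0.621 and 1.07 CPM, overlapped non-responders at 0.745 to 2.71 CPM (log2 fold change -0.80 ± 0.64, SE, adjusted p = 0.45). Il11ra1, the receptor of IL-11, was at 68.8 and 29.3 CPM against 15.6 to 32.8 CPM, so only responder 15 stood above the non-responders. It was called (log2 fold change 1.15 ± 0.29, SE, adjusted p = 0.0095), but not without responder 15, where the log2 fold change was 0.34 (adjusted p = 0.72). Reads of Il11ra1 can also belong to the near-identical Il11ra2 entries, which held at most 1 count in any tumor. The Il11ra1 gene also overlaps that of Galt (mean 475 counts) on the same strand. Any reads of shared exons may be split between the pair by the counting.

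Il5ra, the private chain of the IL-5 receptor, which eosinophils and some B cells carry, had 166 and 72 counts in responders, 3 counts over all non-responders and 6 over all IgG controls. Its ratio of responders to non-responders was 238, again as a description. Il5 had 4 and 5 counts in responders and 1 to 22 in the other tumors. The related Il3ra was at 12.3 and 8.69 CPM against 6.16 to 9.94 CPM. In the IL-17 group, Il17a, Il17b and Il25 had 0 counts in every tumor. Il17re, a receptor of IL-17C, was at 0.769 and 0.534 CPM against 0 to 0.228 CPM in non-responders. Il5ra and Il17re could be tested only through their counts in responders. Il17ra, the chain that all IL-17 receptors share, was at 93.1 and 59.5 CPM against 37.0 to 53.6 CPM (log2 fold change 0.74 ± 0.18, SE, adjusted p = 0.0081), with 0.58 without responder 15. Its partner Il17rc, at 11.1 and 11.5 CPM, was inside the non-responder range of 10.7 to 15.2 CPM.

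Il16 had the smallest p of all members. This ligand of CD4 is made as a precursor by lymphocytes, and it was at 85.3 and 52.3 CPM in responders, against 10.9, 11.9 and 14.5 CPM (lowest, median, highest) in non-responders and 8.75, 11.7 and 13.9 CPM in IgG controls. All 14 other tumors lay within a narrow band (log2 fold change 2.49 ± 0.19, SE, adjusted p = 1.3e-07). Il34 went the other way: it was at 22.1 and 34.4 CPM in responders, below non-responders at 37.8, 44.7 and 48.6 CPM and IgG controls at 37.1, 40.6 and 64.7 CPM. Both responders were under every other tumor, with a log2 fold change of -0.66 ± 0.20 (SE, adjusted p = 0.029). Without responder 15 the adjusted p of Il34 was 0.42, and without responder 16 the log2 fold change was -1.07.

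Of the 81 entries, 29 were not tested for low counts. Among them 7 (Il1f10, Il9, Il17a, Il17b, Il22, Il25 and Il31) had 0 counts in all 16 tumors, a limit that leaves up to 3 counts per library open. The skin-associated IL-1 family genes Il1f5, Il1f6 and Il1f8 had 26, 2 and 9 counts in non-responder 12. Keratinocyte markers summed to 56.5 CPM in that tumor against 3.93 to 39.7 CPM in the 15 others. Il17rb, a receptor chain for IL-25, had 26 and 8 counts in responders and 0 to 7 in the other tumors. With no filter on low counts, Il4, Il13 and Il17rb were called higher in responders over IgG controls (log2 fold changes 3.49, 3.73 and 2.88, adjusted p = 0.046, 0.043 and 0.049, edgeR's quasi-likelihood test), on 9, 11 and 34 counts in both responders together. Il17f, a ligand close to Il17a, had 0 counts in both responders and 1 to 9 in each non-responder.

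The 2 responders were not alike. Of the 20 called members, 16 were higher in responder 15 and 4 (Il10, Il12b, Il18r1 and Il2rb) in responder 16, while over the 52 tested members the split was 28 and 24. The ratio of responder 15 to responder 16 was 6.76 for Il9r, 6.57 for Il22ra2, 2.97 for Il4i1, 2.75 for Il12a and 2.42 for Il5ra. At the other end it was 0.0914 for Il1f9, an IL-36 ligand, 0.191 for Il23a, 0.243 for Il1a, 0.277 for Il1b and 0.325 for Il1rn. With 1 tumor on each side these ratios have no replicate check. B cell, lymph node and fat cell marker sums were also higher in responder 15, while NK cell markers were at 23.7 CPM in responder 15 and 42.8 CPM in responder 16. Each of the 22 alternative fits run called the same 7 members: Il16, Il18r1, Il1r1, Il21r, Il27ra, Il4i1 and Il9r.

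Responders were next set against IgG controls, a comparison that shares the responder tumors with the one above. Here 26 of 52 members were called higher and 0 lower, where 14.3% of all genes were called higher and 0.641% lower, and DESeq2 gave 26 and 0. Among the 47 members that did not depend on the responders to be tested, 22 were called. By the adjusted p alone 31 were higher and 1, Il34, was lower (17.7% and 5.17% of all genes), and 36 had an unadjusted p below 0.05 (33.3%). Both responders were above every IgG control for 29 members (19.3%) and below for 1, Il34 (9.67%). The median log2 fold change was 1.15 over members, 1.05 over those 47 and -0.021 over all genes. The counts by p-value and by non-overlap were taken over all 52, with the members tested through the responders alone. The 6 genes called here and not against non-responders were Il18, Il18bp, Il18rap, Il1rn, Il1f9 and Il12rb2. Their log2 fold changes over IgG controls and over non-responders were 1.13 and 0.85 for Il18, 1.17 and 0.55 for Il18bp, 1.43 and 0.95 for Il18rap, 1.09 and 0.44 for Il1rn, 3.25 and 1.45 for Il1f9, and 2.05 and 1.35 for Il12rb2. Il18, Il18bp and Il18rap belong to the IL-18 system. DESeq2 did not call Il1f9 (adjusted p = 0.064) and called Il1a in its place (adjusted p = 0.046). Il1f9 had 2 counts in responder 15 and 23 in responder 16. At 0.0591 CPM responder 15 was inside the IgG control range of 0 to 0.0844 CPM. In edgeR's quasi-likelihood test the call for Il1rn was lost with no filter on low counts (adjusted p = 0.0642). It was also lost without any 1 of IgG controls 2 and 5 and non-responder 10 (adjusted p = 0.0502, 0.0518 and 0.0504). Without responder 16, Il18bp, Il18rap, Il1rn, Il1f9 and Il12rb2 were not called over IgG controls, and without responder 15 Il18 was not. The counts called were then 22 and 20, with Il34 called lower without responder 16.

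The last comparison sets the treated tumors in which CD8 staining stayed low, the non-responders, against all IgG controls. Non-responders were selected by staining after treatment and IgG controls were not, so treatment and selection cannot be told apart here. No member was called by edgeR or by DESeq2, and 0% of all genes were called. Non-responders lay above every IgG control for 0 members (0.0164% of all genes) and below for 0 (0.0219%). At an unadjusted p below 0.05 there were 7 members of 52, against 3.80% of all genes: Il15ra, Il18bp, Il12rb1, Il1a, Il18rap, Il1rn and Il1r2, each higher in non-responders. Il15ra, with the smallest p, was at 22.2, 25.3 and 28.5 CPM (lowest, median, highest) in non-responders and 16.5, 20.7 and 23.7 CPM in IgG controls, so the ranges overlapped. Its log2 fold change was 0.32 ± 0.09 (SE, adjusted p = 0.85). Il18bp was at 17.8, 24.8 and 28.8 CPM against 11, 13.3 and 25.2 CPM (log2 fold change 0.61 ± 0.20, SE, adjusted p = 0.99). Il12rb1 was at 16.3, 21.2 and 27.4 CPM against 9.29, 12.9 and 20.6 CPM (log2 fold change 0.58 ± 0.19, SE, adjusted p = 0.99). Of the 52 members 44 had a log2 fold change above 0, with a median of 0.24, while the median over all genes was -0.0057. The members are measured in the same tumors, so this count is a description. It ranged from 40 to 46 when 1 tumor was left out, in fits with 52 members.

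Partner chains and signaling genes outside the name rule were grouped into lists by function. The share of all genes to read their counts against is 12.5% called higher and 15.4% passed on the higher side. Of 14 partner chains and related cytokines tested, 2 were called higher in responders over non-responders: Lifr, the receptor of LIF, at 57.7 and 28.3 CPM (log2 fold change 1.71 ± 0.25, SE, adjusted p = 9.2e-05), and Csf2rb2, a beta chain of the IL-3 receptor, at 47.7 and 47.0 CPM (log2 fold change 1.27 ± 0.23, SE, adjusted p = 0.00084). Csf2rb is its near copy, and reads may be split between the pair. Of 15 JAK, STAT and SOCS genes, 8 passed the adjusted p, all on the higher side, and 2 were called. Without responder 15 only the called pair still passed, and Jak1, Jak2, Jak3, Stat5a, Stat5b and Stat6 had adjusted p from 0.22 (Jak2) to 0.78 (Stat6). Stat4, which carries the IL-12 signal in T and NK cells, was at 21.8 and 20.8 CPM against 2.13 to 4.87 CPM in non-responders (log2 fold change 2.70 ± 0.24, SE, adjusted p = 5.4e-07). Socs2, a feedback inhibitor, was at 16.1 and 14.1 CPM against 3.82 to 4.91 CPM (log2 fold change 1.82 ± 0.23, SE, adjusted p = 2.0e-05). Of 16 genes of IL-1 and IL-17 signaling and processing, 2 passed and 1 was called, the inhibitory kinase Irak3 at 17.0 and 6.97 CPM against 2.38 to 5.73 CPM (log2 fold change 1.67 ± 0.30, SE, adjusted p = 0.00072). Without responder 15 the call for Irak3 was lost (log2 fold change 0.82, adjusted p = 0.23), and Pycard, the other that passed, had an adjusted p of 0.36. The adaptor Myd88 (log2 fold change 0.16 ± 0.12, SE, adjusted p = 0.43) and the inflammasome sensor Nlrp3 (0.033 ± 0.27, SE, adjusted p = 0.96) did not pass.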

How the data were processed

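Total RNA of 2 sections of 100 microns from each fresh-frozen tumor was enriched for poly(A) and made into strand-specific libraries, read as pairs on a NovaSeq. The authors aligned reads to GRCm38 with STAR 2.6 and deposited expected counts per gene from RSEM 1.3.0 on Ensembl genes. The strand setting of the counting is not given in the sources used here. Here, 92 spike-in entries were removed and the expected counts were rounded. Symbols and exon lengths came from GENCODE M21, a later release than the authors' Ensembl genes, which matched 53360 of 53465 genes.

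Tests used edgeR 4.0.16 (TMM scaling, filterByExpr over the 3 groups, robust quasi-likelihood) in R 4.3.3, in 1 fit of 16 tumors without covariates, with Benjamini-Hochberg adjustment over 18251 genes. Calls needed both an adjusted p under 0.05 and a change beyond 1 on the log2 scale. SE is the log2 fold change divided by the root of F. CPM used TMM-effective libraries. The steps were tested on simulated data with 200 changed genes per comparison. For responders over non-responders, 88% of 4-fold and 44% of 2-fold changes passed the adjusted p. For non-responders over IgG controls, 95% and 81% passed. Unchanged genes made up 3.65% and 3.83% of those that passed. Changes near 2-fold in responders could thus be missed. Alternatives were DESeq2 1.42.0, median-of-ratios scaling, no filter, a filter of 10 counts in 8 tumors, 2 groups only, no fold limit and leaving out each tumor. Leaving out the 3 tumors above 5% mitochondrial mRNA was chosen after seeing the data. Chi-square per degree of freedom was at least 16.1 over 120 pairs of tumors, so none was a copy of another. Tumors were taken as separate animals.

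The members, families and lists were chosen with earlier results of these data known. Members were named by rule: the 10 called members of smallest p between responders and non-responders, those called lower, the 3 with the smallest p for non-responders over IgG controls, the 5 highest per length, and 30 set by symbol. All other members named with values were added after their values were seen, to describe each family. Of signaling genes, every called one was named, and Ebi3, Myd88 and Nlrp3 were added. Of 16 marker lists, those not given in the report had these counts called higher in responders over non-responders: plasma cell 4 of 5, NK cell 3 of 5, neutrophil 2 of 6, dendritic cell 6 of 6, mast cell 0 of 6, fibroblast 1 of 6, endothelium 3 of 5, keratinocyte 0 of 6, skeletal muscle 0 of 5, colon epithelium 4 of 6 and proliferation 0 of 5. The share of all genes called higher was 12.5%.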

Additional observations from a re-analysis of the deposited data

Results flagged for a closer look

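Dixon's test for a tumor far from the rest of its group was run on the IgG control and non-responder values of 35 members, 70 groups in all, and 7 gave a tumor beyond the 95% critical value, where chance gives about 1 in 20 groups. In 1 of the 7 (Il22ra2) the other tumors were all at 0, so any count was beyond the value, which leaves 6 of 69 groups. IgG control 1, which had the highest share of mitochondrial mRNA, accounted for 4 of the 6. In that tumor Il1rl1 was at 163 CPM where the other IgG controls ran from 323 to 460 CPM. Its Il34 was at 64.7 CPM against 37.1 to 44.5 CPM, its Il6ra at 36.4 CPM against 17.9 to 25.8 CPM, and its Il21r at 15.2 CPM against 7.08 to 10.9 CPM. The part of RNA quality in these values was not tested. Il2rg was at 73.3 CPM in IgG control 8 against 44.4 to 55.6 CPM, and the T cell markers of that tumor summed to 30.2 CPM against 8.27 to 17.6 CPM in the other IgG controls. Both remaining cases lie near 0 counts: Il22ra2 at 0.0339 CPM in non-responder 14, which is 1 count, with the other non-responders at 0, and Il12a at 0.0600 CPM in IgG control 4, which is 2 counts, against at most 0.0281 CPM.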

How the results depend on the processing

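No paired analysis was possible because the tumors carry the numbers 1 to 16 once each and the groups share none. Members called higher in responders over non-responders numbered 12 to 21 when 1 tumor was left out, and members called lower 0 to 1. With no filter on low counts 1 member was called lower, Il17f, which is at 0 counts in both responders, and with the adjusted p alone 1 was lower, Il34. The median log2 fold change of 0.84 was 0.64 with no filter and 0.73 with the stricter filter, where other numbers of genes entered, and 0.74 to 0.94 when 1 tumor was left out. Against IgG controls the median of 1.15 was 0.87 with no filter, and members called lower numbered 1 with the adjusted p alone and 0 to 1 when 1 tumor was left out. Signs turned for single uncalled members. Without 1 tumor the log2 fold change over non-responders was -0.0082 to 0.13 for Il15ra, -1.13 to 0.89 for Il1a, -1.03 to 0.80 for Il1b, -0.64 to 0.97 for Il1rn, -0.34 to 0.56 for Il27, -0.12 to 0.17 for Il1r2 and -0.89 to 0.020 for Il1rl1. Il1r2 was at -0.043 with no filter, and without the tumors above 5% mitochondrial mRNA Il1r2 was at -0.33 and Il1b at -0.14. The cause was not tested. No member was called between non-responders and IgG controls under any alternative run.

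The responder group of 2 limits every statement on responders. When 1 was left out, the lone responder was taken to vary like the tumors of the other groups. Members that did not reach about 10 counts in at least 2 tumors were not tested. A difference in Il2, Il9 or Il17a was therefore not detectable at this depth. Il4, Il13 and Il17rb, also not tested, were called higher over IgG controls with no filter on low counts, and Il13 also without responder 15 (adjusted p = 0.018), on 11 counts of the remaining responder.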
